A study of Mus musculus with 15 samples.

Results

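Germ cells of the fetal ovary enter meiosis, whereas those of the fetal testis stop dividing and stay out of it until after birth. The signals of 10 genes that start meiosis or build its chromosomes were followed in mouse gonads of embryonic day 15.5 (E15.5). *Stra8* and *Bhmg1*, whose product is also called MEIOSIN, encode partners that switch on the meiotic gene program in response to retinoic acid and, in mouse, BMP signaling. *Meioc* and *Ythdc2* encode proteins that act together on RNA to end the mitotic program. *Rec8*, *Rad21l*, *Smc1b* and *Stag3* encode the subunits particular to meiotic cohesin, the ring that holds sister chromatids together and carries the chromosome axis. *Sgo2a* encodes a shugoshin that guards cohesin at the centromere, and *M1ap* is needed for meiosis in the mouse testis. The genes were chosen by name, with earlier results of these data known. They are 10 of the 30176 genes with a single symbol on the array, and each was read by 1 transcript cluster, a set of probes to the same transcribed region.

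RNA of whole gonads, separated from the mesonephros, was hybridized to Affymetrix Clariom D arrays, 1 array per sample. XY gonads homozygous for the null alleles of *Amh* and *Inhbb* (dKO XY, Amh-/-; Inhbb-/-) were set against the testes (control XY) and ovaries (control XX) of wild-type embryos, all at E15.5, with 5 arrays in each group. The embryos came from Amh+/-; Inhbb+/- crosses in a C57BL/6 background, and the loss of both genes was constitutive, not limited to 1 cell type. The study describes its samples as independent biological replicates, and the p-values measure the spread between these arrays.

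Array medians ran from 5.17 to 5.33, and arrays of the same group correlated with one another at 0.989 to 0.996. *Amh*, which encodes anti-Müllerian hormone, had a mean of 4.51 in dKO XY, against 11.47 for the testes and 4.31 for the ovaries of the controls. *Inhbb*, which encodes the activin B subunit, had means of 9.27, 10.53 and 9.18 in the same order. The means of 7 Sertoli cell markers were 9.83 to 10.22 in dKO XY, 10.28 to 10.61 in the control testes and 5.75 to 6.29 in the control ovaries. The means of 7 granulosa cell markers were 7.97 to 8.38, 6.48 to 6.65 and 9.54 to 9.69. No group went against its label in these genes. The Sertoli cell markers did not move as 1 group between dKO XY and control XY. *Cldn11* differed by 1.63 and *Cst9* by 0.99, whereas *Hsd17b3* differed by -2.23, *Fshr* by -1.67 and the others by -0.85 to -0.10. Values are deposited log2 signals. They ran up to 19.93, past the 16 that a plain log2 scanner signal can reach, so the scale is stretched by an unstated amount, and 1 unit may stand for less than a 2-fold ratio. The 23 background probe sets had a median of 3.61 and a 95th percentile of 5.95, and the 5222 negative control sets had a median of 6.24. In control XY the means of *Rec8* (6.05), *Stra8* (6.35), *Meioc* (6.43), *M1ap* (6.68), *Bhmg1* (6.80) and *Rad21l* (7.22) lay within 1 unit of that median. The part of background in their differences from control XY was not tested. In bulk tissue, fewer cells of a type and less RNA per cell cannot be told apart.

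The promoters of 9 of the 10 genes were found in the RefSeq table (GRCm38.p6, 250 bases before to 50 after each start). They are shown for *Stra8* and *Bhmg1*, the 2 partners at the head of the program, for *Smc1b* and *Stag3*, 2 cohesin subunits that differed in the size of their change, and for *Sgo2a*, the gene that did not follow the others. Capitals mark matches, on either strand, to 4 motifs: the E-box CACGTG, the E2F core GCGGGA, the STRA8 motif CNCCTCAG and the hexamer AGGTCA, of which a retinoic acid receptor site needs a spaced pair.
*Stra8* (chr6:34920698-34920997, plus strand): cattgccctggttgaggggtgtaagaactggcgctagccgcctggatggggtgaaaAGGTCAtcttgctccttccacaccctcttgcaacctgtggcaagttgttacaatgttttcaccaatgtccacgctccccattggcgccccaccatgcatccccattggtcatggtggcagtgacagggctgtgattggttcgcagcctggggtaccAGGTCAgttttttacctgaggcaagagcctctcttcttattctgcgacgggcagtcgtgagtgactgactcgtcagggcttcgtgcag
*Bhmg1* (chr7:19118295-19118594, minus strand): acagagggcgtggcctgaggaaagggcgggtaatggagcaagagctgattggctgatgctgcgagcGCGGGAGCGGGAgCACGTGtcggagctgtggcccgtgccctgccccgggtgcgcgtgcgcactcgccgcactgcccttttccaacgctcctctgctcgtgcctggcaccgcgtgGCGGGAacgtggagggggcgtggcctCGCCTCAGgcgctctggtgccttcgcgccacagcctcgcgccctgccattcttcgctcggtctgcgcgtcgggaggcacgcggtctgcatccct
*Smc1b* (chr15:85131908-85132207, minus strand): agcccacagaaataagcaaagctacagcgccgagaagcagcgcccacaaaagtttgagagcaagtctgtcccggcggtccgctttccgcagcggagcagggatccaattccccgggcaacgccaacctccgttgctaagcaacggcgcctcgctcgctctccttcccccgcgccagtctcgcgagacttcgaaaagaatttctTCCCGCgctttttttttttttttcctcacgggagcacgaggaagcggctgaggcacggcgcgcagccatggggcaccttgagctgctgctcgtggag
*Stag3* (chr5:138280259-138280558, plus strand): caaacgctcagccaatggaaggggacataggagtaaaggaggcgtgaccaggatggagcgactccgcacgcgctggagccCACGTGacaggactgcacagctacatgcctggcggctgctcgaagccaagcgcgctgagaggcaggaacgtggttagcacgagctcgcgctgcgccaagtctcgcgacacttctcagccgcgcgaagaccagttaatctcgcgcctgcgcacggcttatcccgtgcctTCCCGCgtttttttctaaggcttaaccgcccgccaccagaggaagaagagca
*Sgo2a* (chr1:57985090-57985389, plus strand): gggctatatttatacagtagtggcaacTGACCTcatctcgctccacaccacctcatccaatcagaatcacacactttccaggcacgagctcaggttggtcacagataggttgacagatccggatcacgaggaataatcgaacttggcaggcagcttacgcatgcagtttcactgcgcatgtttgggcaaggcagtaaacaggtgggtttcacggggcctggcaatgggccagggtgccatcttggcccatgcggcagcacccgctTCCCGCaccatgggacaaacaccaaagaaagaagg
The E2F core was present in the promoters of 7 of the 9 genes, and in 20% of all 32851 promoters of this length. *Bhmg1* held 3 copies, the outermost at -184 from the start, and *Stra8* and *Rad21l* held none. The E-box was found in *Bhmg1* and *Stag3*, 2 of 9, against 7.15% of all promoters. The STRA8 motif was found in *Bhmg1* and *M1ap*, against 7.94% of all promoters. The single hexamer AGGTCA occurred at -194 and -38 in *Stra8* and once in *Sgo2a*, against 16.3% of all promoters. Matches of different motifs did not overlap in the promoters shown. The windows of *Stra8*, *Stag3* and *Rad21l* lay inside the RefSeq bounds of their genes. On the plus strand, *Stra8* begins at 34920163 and *Stag3* at 138272514. On the minus strand, *Rad21l* begins at 151670622, and its window was 151668484 to 151668783. The sequence at these outer bounds was not searched. A match is only a run of letters, and binding was not measured.

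The question of the main comparison was whether genes of meiotic entry differ between XY gonads with and without AMH and activin B. In dKO XY, 8 of the 10 genes rose over control XY and 0 fell. The rule was an adjusted p under 0.05 (limma, Benjamini-Hochberg over 65956 clusters) with a difference of at least 1 unit, and by it 0.567% of all clusters were called higher and 1.62% lower. At an unadjusted p under 0.05, 9 of the 10 genes were higher and 0 lower, against 10% and 11.9% of all clusters, and the same model without moderation called 8 and 0. The median difference of the 10 genes was 2.73 units, and that of all clusters was 0.01. In 9 of the genes every dKO XY array exceeded every control XY array, a separation in that direction seen in 4.26% of all clusters. In control XX, 9 of the 10 genes rose over control XY and 0 fell, with a median of 5.10 units. Of all clusters, 2.54% were called higher and 3.22% lower in that comparison, and 8.38% were higher without overlap. Against control XX, 9 of the 10 genes were lower in dKO XY and 0 higher, with a median of -1.73 units. Of all clusters, 1.28% were called lower and 1.22% higher there, and 5.89% were lower without overlap, as 8 of the 10 genes were. The mean of dKO XY lay above that of control XY and below that of control XX for 9 genes, and *Sgo2a* ran in the opposite order. The 3 comparisons share their groups and are not independent of one another.

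**Figure D1:**
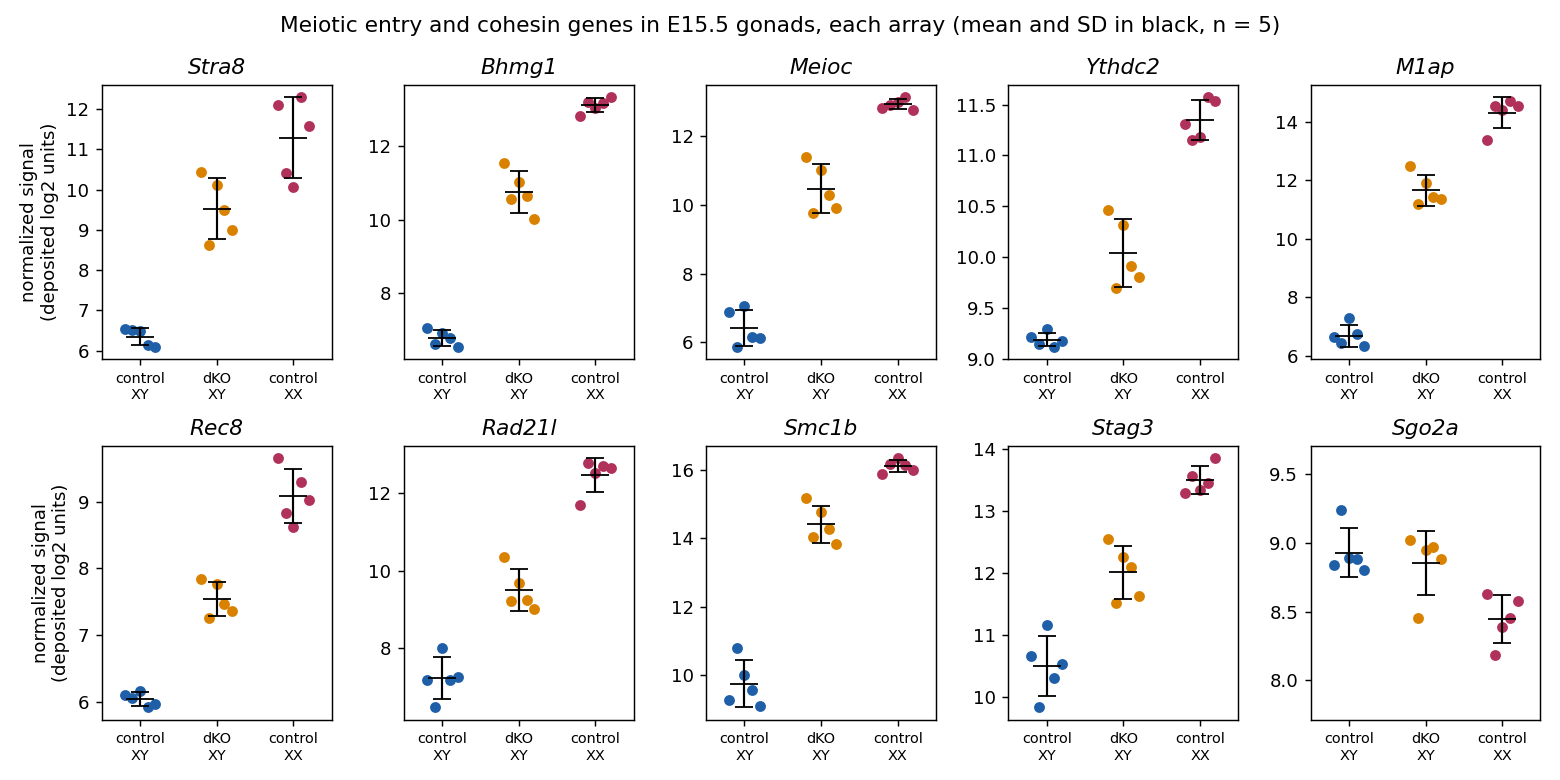
Normalized signal (vertical axes, deposited log2 units, a separate range for each gene) of the 10 genes on each of the 5 arrays of a group, with the mean and SD in black. The means rise from control XY through dKO XY to control XX for every gene except *Sgo2a*, and *Stra8* is the only one of these 9 genes whose dKO XY and control XX arrays overlap.

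*Stra8*, which the study also named on these samples, gave 10.43, 8.62, 10.12, 9.49 and 8.99 in dKO XY replicates 1 to 5. Control XY gave 6.53, 6.50, 6.48, 6.14 and 6.10, close to the 95th percentile of the background probe sets and to the median of the negative control sets, 6.24. Control XX gave 12.10, 10.42, 10.07, 12.29 and 11.58. All dKO XY arrays were above all control XY arrays, and 2 of them reached into the range of control XX, whose replicates 2 and 3 were low. The gene rose by 3.18 ± 0.41 (SE) in dKO XY over control XY (limma, adjusted p = 0.0001). It was 1.76 ± 0.41 units lower in dKO XY than in control XX (limma, first minus second -1.76, adjusted p = 0.0065).

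*Bhmg1* gave 11.54, 10.56, 11.02, 10.64 and 10.03 in dKO XY. Control XY gave 7.06, 6.62, 6.94, 6.79 and 6.56, and control XX gave 12.81, 13.19, 13.03, 13.17 and 13.32. The 3 groups did not overlap, and the spread in control XX (SD 0.19) was smaller than that of its partner *Stra8* there (SD 1.00). The difference from control XY was 3.96 ± 0.21 units in dKO XY (limma, adjusted p = 1.7e-08) and 6.31 ± 0.21 in control XX (limma, adjusted p = 3.1e-12). *Bhmg1* overlaps *Six5* on the other strand in RefSeq, and whether the array separates the strands there is not given in the sources used here.

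The 2 RNA regulators differed in the size of their change. *Meioc* gave 11.39, 9.76, 11.01, 10.27 and 9.92 in dKO XY. The arrays of control XY gave 6.87, 5.88, 7.07, 6.17 and 6.13, and those of control XX gave 12.82, 12.91, 12.98, 13.12 and 12.76. Its groups did not overlap, and it rose by 4.05 ± 0.29 units in dKO XY over control XY (limma, adjusted p = 3.3e-07). *Ythdc2*, an RNA helicase gene, was already well above background in control XY, at 9.21, 9.15, 9.29, 9.12 and 9.17. It gave 10.46, 9.70, 10.32, 9.91 and 9.80 in dKO XY and 11.31, 11.15, 11.18, 11.57 and 11.53 in control XX. Its groups did not overlap either, but the difference between dKO XY and control XY was 0.85 units (95% interval 0.56 to 1.13; limma, adjusted p = 0.00067), which fell short of 1 unit and was not called. In control XX the difference was 2.16 ± 0.13 (limma, adjusted p = 4.4e-09).

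*M1ap* showed the highest difference of the 10 genes in both comparisons with control XY. It gave 12.48, 11.18, 11.89, 11.41 and 11.34 in dKO XY and 6.63, 6.42, 7.29, 6.75 and 6.33 in control XY. Control XX gave 13.37, 14.52, 14.40, 14.69 and 14.52, with replicate 1 below the rest. The groups did not overlap, and the gene rose by 4.98 ± 0.27 in dKO XY (limma, adjusted p = 2.9e-08) and by 7.62 ± 0.27 in control XX (limma, adjusted p = 8.9e-12). No cluster among the 65956 exceeded the 4.98 units of *M1ap* in dKO XY over control XY. In RefSeq, *Gm19287* and *Gm32644* overlap *M1ap*, and their strands were not found in the sources used here.

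*Rec8* encodes a kleisin, the subunit that closes the cohesin ring. It gave 7.84, 7.26, 7.77, 7.46 and 7.36 in dKO XY. The arrays of control XY gave 6.11, 6.06, 6.17, 5.92 and 5.97, and those of control XX gave 9.65, 8.83, 8.62, 9.30 and 9.02. The groups did not overlap, and every control XY array was below the median of the negative control sets, 6.24. The rise in dKO XY was 1.49 ± 0.16 units (limma, adjusted p = 2.3e-05). *Rad21l*, the other meiotic kleisin gene, gave 10.35, 9.21, 9.68, 9.23 and 9.0 in dKO XY. The arrays of control XY gave 7.17, 6.47, 8.0, 7.18 and 7.26, and those of control XX gave 11.70, 12.78, 12.51, 12.69 and 12.65. It rose by 2.28 ± 0.29 in dKO XY (limma, adjusted p = 8.6e-05) and 5.25 ± 0.29 in control XX (limma, adjusted p = 9.2e-10). Its deficit in dKO XY against control XX, -2.97 ± 0.29, was the deepest of the 10 genes (limma, adjusted p = 2e-06).

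*Smc1b*, the meiotic form of the SMC1 arm, gave 15.17, 14.04, 14.76, 14.28 and 13.83 in dKO XY. Control XY gave 9.25, 10.80, 9.99, 9.56 and 9.08, and control XX gave 15.88, 16.18, 16.35, 16.16 and 16.01. No groups overlapped, and replicate 2 stood highest within control XY. The gene rose by 4.68 ± 0.29 units in dKO XY (limma, adjusted p = 7.5e-08) and by 6.38 ± 0.29 in control XX (limma, adjusted p = 1.4e-10), where 4 of 5 arrays were above 16 on the stretched scale. *Stag3*, the meiotic form of the STAG subunit, had 12.55, 11.53, 12.26, 12.10 and 11.64 in dKO XY. The arrays of control XY gave 10.66, 9.84, 11.17, 10.32 and 10.54, and those of control XX gave 13.29, 13.57, 13.34, 13.46 and 13.86. Its groups did not overlap, and its rise in dKO XY was 1.51 ± 0.22 (limma, adjusted p = 0.00038). RefSeq has *Fam118a* overlapping *Smc1b* and *Gpc2* overlapping *Stag3*, each on the other strand. *Gm10923* also overlaps *Smc1b* and *Gal3st4* overlaps *Stag3*, and the strands of these 2 were not found in the sources used here.

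*Sgo2a* did not rise. It gave 9.02, 8.45, 8.95, 8.97 and 8.88 in dKO XY. The arrays of control XY gave 8.84, 9.24, 8.89, 8.88 and 8.80, and those of control XX gave 8.63, 8.18, 8.39, 8.45 and 8.58. The dKO XY arrays overlapped both controls, and every control XX array was below every control XY array. The difference between dKO XY and control XY was -0.08 units, with a 95% interval of -0.33 to 0.18 (limma, adjusted p = 0.80). That between control XX and control XY was -0.48, with an interval of -0.74 to -0.23 (limma, adjusted p = 0.006), under the 1 unit required for a call.

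**Figure D2:**
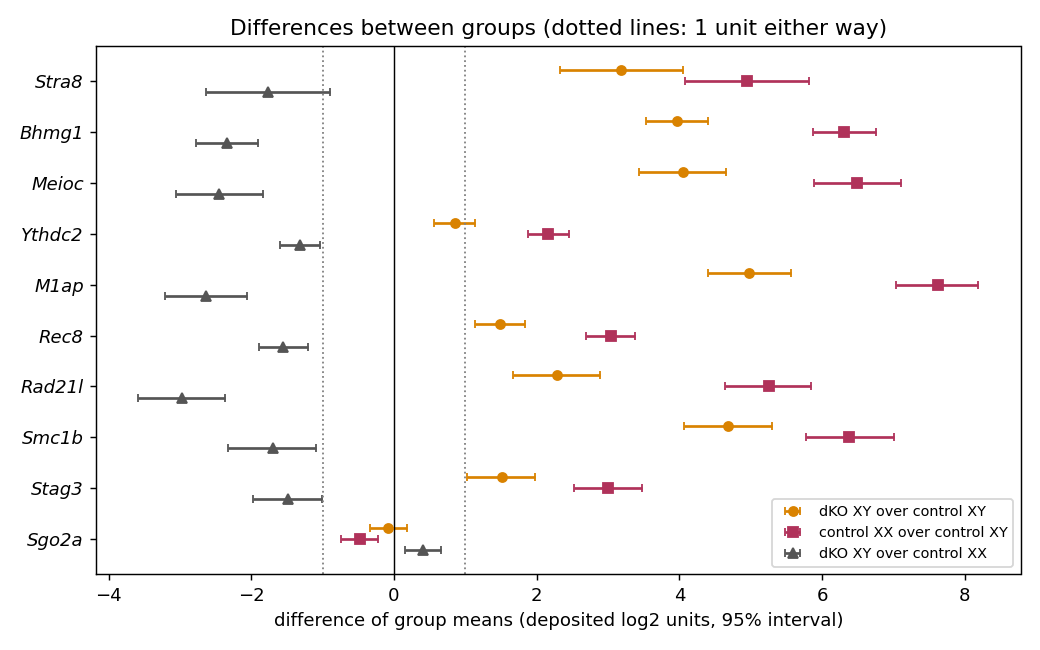
Difference of group means with its 95% interval (horizontal axis, deposited log2 units) for the 10 genes: dKO XY over control XY (circles), control XX over control XY (squares) and dKO XY over control XX (triangles). For all 10 genes the circle lies between 0 and the square, and the circle of *Ythdc2*, at 0.85, falls inside the dotted line at 1 unit, while the 3 marks of *Sgo2a* lie between -0.48 and 0.41.

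The genes did not stand at the same place between the controls. As a percentage of the way from the mean of control XY to that of control XX, dKO XY stood at 73.3% for *Smc1b* (70.4 to 75.6 on leaving out each array in turn). *M1ap* stood at 65.4%, *Stra8* at 64.4%, *Bhmg1* at 62.8% and *Meioc* at 62.3%, and their ranges on leaving out arrays, from 58.8 to 69.0 in all, overlapped one another. *Stag3* at 50.3% and *Rec8* at 49.1% followed, and their ranges (45.9 to 54.3 and 46.6 to 51.5) overlapped too. *Rad21l* stood at 43.4% (39.3 to 45.8) and *Ythdc2* at 39.3% (34.4 to 43.2). These positions are on the deposited log2 scale, on which *Smc1b* passes 16 in control XX, and their differences were not tested. If the scale were plain log2, the signal in dKO XY as a share of that in control XX would follow another order: 40.3% for *Ythdc2*, 35.6% for *Stag3*, 34.3% for *Rec8*, 30.7% for *Smc1b*, 29.5% for *Stra8*, 19.7% for *Bhmg1*, 18.3% for *Meioc*, 16.1% for *M1ap* and 12.8% for *Rad21l*.

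Within dKO XY, replicate 1 had the highest signal of its group for all 10 genes, with a median deviation of 0.76 units from the group mean. Replicate 3 deviated by a median of 0.25, replicate 4 by -0.12, replicate 2 by -0.40 and replicate 5 by -0.44. *Sgo2a* departed from this order, at 0.12 in replicate 4 and 0.03 in replicate 5. The lowest array was replicate 2 for 7 genes and replicate 5 for 3. Replicates 1 and 3 also had the highest means of the granulosa cell markers, 8.38 and 8.37 against 7.97 to 8.21 in the other dKO XY arrays, and the lowest means of the Sertoli cell markers, down to 9.83 in replicate 3 against 10.06 to 10.22. The mean of the germ cell markers was 11.09 in replicate 1 and 10.55 in replicate 3, against 10.73 to 11.23 in the others. Whether these markers have a part in the spread of the 10 genes was not tested. With replicate 1 left out, the counts of genes called were again 8 above control XY and 9 below control XX.

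The controls showed less of a shared order. In control XY, replicate 3 was highest for 6 genes and replicate 5 lowest for 5, but *Smc1b* was highest in replicate 2, where *Meioc*, *Stag3* and *Rad21l* were lowest. In control XX, *Stra8* and *Rec8* had their lowest signals in replicates 2 and 3, while *Rad21l* and *M1ap* had theirs in replicate 1. *Stra8* in replicates 3 and 4 of control XX deviated by -1.22 and 1.00 units, the widest deviations of any of the 10 genes in that group.

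**Figure D3:**
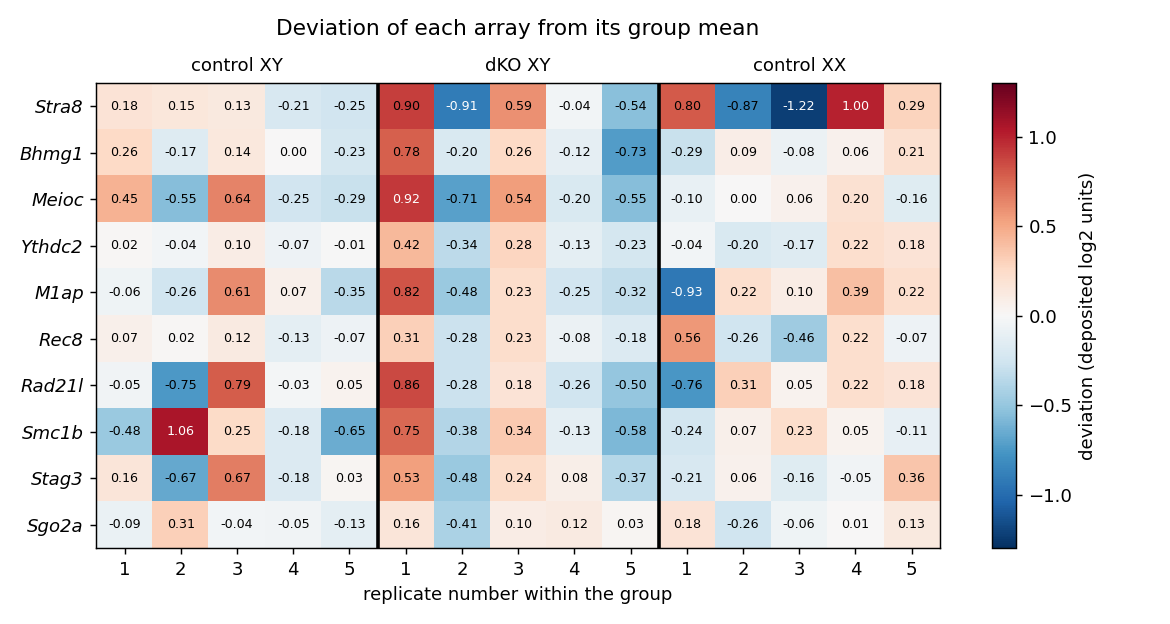
Deviation of each array from the mean of its own group (color and printed value, deposited log2 units) for the 10 genes (rows) and replicates 1 to 5 of each group (columns). In dKO XY the column of replicate 1 is positive for all 10 genes, whereas the columns of control XX mix signs, with *Stra8* from -1.22 to 1.00.

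Cohesin also has subunits used in somatic cells, and none of 5 genes of the general subunits passed the rule in dKO XY over control XY. *Rad21*, the somatic kleisin gene, had a mean of 13.89 in dKO XY, 14.29 in the control testes and 12.77 in the control ovaries, and the groups did not overlap. It fell in the ovary against the testis of the controls (-1.52 ± 0.11, limma, adjusted p = 2.4e-08). Its difference of -0.40 ± 0.11 in dKO XY over control XY (limma, adjusted p = 0.025) was under 1 unit and not called. *Smc1a*, the somatic SMC1 gene, differed by -0.29 units between dKO XY and control XY (limma, adjusted p = 0.03), also under 1 unit. *Stag1* and *Stag2*, the somatic STAG genes, differed by -0.03 (95% interval -0.18 to 0.13) and -0.11 (-0.24 to 0.01). *Smc3*, whose product is shared by both kinds of ring, differed by 0.32 (limma, adjusted p = 0.078). Among 18 genes of mitotic cohesin and its regulators, 1 rose and 0 fell in dKO XY over control XY, with a median of 0.04. The gene that rose was *Esco2*, an acetyltransferase that locks cohesin onto replicated DNA, by 1.42 ± 0.16 (limma, adjusted p = 2.3e-05), and it rose by 2.82 ± 0.16 in control XX. In control XX over control XY, 3 of the 18 were higher and 2 lower. *Esco1* (1.19) and *Mau2* (1.08), a cohesin loader gene, were the other higher genes, and *Pttg1* (-1.07), which encodes securin, was lower beside *Rad21*.

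**Figure D4:**
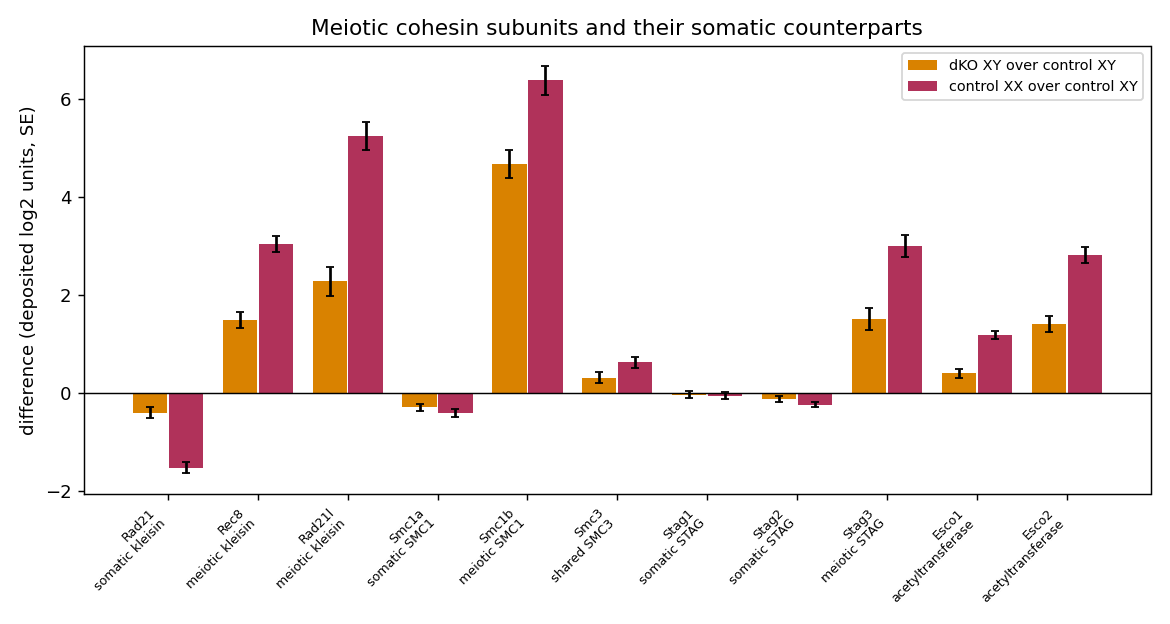
Difference from control XY (vertical axis, deposited log2 units, bars from 0, error bars SE) of meiotic cohesin subunits, their somatic counterparts and the acetyltransferases *Esco1* and *Esco2*, in dKO XY and control XX. Bars of *Rec8*, *Rad21l*, *Smc1b*, *Stag3* and *Esco2* exceed 1 unit in both, whereas those of *Smc1a*, *Smc3*, *Stag1* and *Stag2* stay below 1 unit either way.

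Of 19 genes placed upstream of meiotic entry, 0 rose and 0 fell by the rule in dKO XY over control XY (limma), with a median of 0.01. At an unadjusted p under 0.05, 4 were higher and 5 lower, beside the 10% and 11.9% of all clusters, and the model without moderation also called 0 and 0. *Cyp26b1*, which encodes an enzyme that degrades retinoic acid and keeps germ cells of the fetal testis out of meiosis, had means of 8.97 in dKO XY, 8.64 in the control testes and 6.01 in the control ovaries. Its difference between the XY groups was 0.33 ± 0.15 (limma, adjusted p = 0.23), and dKO XY exceeded control XX by 2.96 ± 0.15 units (limma, adjusted p = 1.9e-09). *Dmrt1*, a testis transcription factor gene, and *Nanos2*, a repressor of meiosis in male germ cells, had differences of 0.08 and -0.06 between the XY groups and of 2.61 and 1.27, both called higher, between dKO XY and the control ovaries. The means of *Nanos2* were 6.27 in dKO XY, 6.34 in the control testes and 5.00 in the control ovaries. These lie near or below the negative control median of 6.24, so the small difference between the XY groups cannot show an unchanged level. *E2f6*, part of a repressor complex on meiotic promoters in other mouse cells, differed by -0.80 ± 0.09 between dKO XY and control XY (limma, adjusted p = 4.5e-05), just short of a call, and fell by 1.35 in control XX over control XY. *Mga* and *Max* of the same complex differed by 0.01 and 0.05. *Rbm46*, whose product works with MEIOC and YTHDC2, differed by 0.81 ± 0.14 in dKO XY (limma, adjusted p = 0.0013), also short of a call, and rose by 1.58 in control XX. In control XX over control XY, 2 of the 19 genes were higher, *Rbm46* and *Msx1*, and 4 lower. *Msx1* had means of 6.10 in the ovaries and 4.75 in the testes of the controls, both below that median.

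Genes that act after entry also rose. Of 9 genes of the synaptonemal complex and axis, 8 rose in dKO XY over control XY and 0 fell (median 2.29), among them *Sycp1* (3.10 ± 0.26), *Sycp3* (2.92 ± 0.21) and *Hormad1* (2.45 ± 0.17). *Syce3* was not called at 0.58. Of 13 genes of DNA break formation and recombination, 9 rose and 0 fell (median 1.29). Among them were *Prdm9* (3.68 ± 0.28), *Meiob* (3.31 ± 0.32), *Dmc1* (2.67 ± 0.22) and *Ccdc36* (2.16 ± 0.19). *Mnd1* and *Psmc3ip*, which act with *Dmc1*, had differences of -0.30 and 0.08. Of 5 genes of telomere attachment, 3 rose and 0 fell: *Terb1* (3.41 ± 0.25), *Majin* (2.34 ± 0.22) and *Terb2* (1.44 ± 0.15). In control XX over control XY, 9 of 9, 11 of 13 and 4 of 5 genes rose. Against control XX, 9, 10 and 3 genes were lower in dKO XY, and 0 were higher in each list. The dKO XY position between the controls had a median of 56.7% over 9 synaptonemal genes, 45.5% over 11 recombination genes and 47.8% over 4 telomere genes, beside 62.3% over the 9 entry and cohesin genes that differed between the controls. The ranges overlapped, at 36.8 to 71.1, 31.7 to 59.0, 42.0 to 56.7 and 39.3 to 73.3%. In control XY, *Mei1* (4.87), *Meiob* (5.07), *Majin* (5.04) and *Terb1* (6.01) were among the recombination and telomere genes below the negative control median of 6.24. Others, such as *Dmc1* (8.88) and *Hfm1* (8.28), lay above it, and the lowest synaptonemal mean was 6.57, of *Syce3*. The part of background in these positions was not tested.

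The mean of 12 germ cell markers expressed in both sexes was 10.96 ± 0.31 (SD, n = 5) in dKO XY, 10.69 ± 0.35 in the control testes and 10.80 ± 0.16 in the control ovaries. The exact two-sided permutation p-values of the 3 differences were 0.21 (dKO XY over control XY, 0.28 units), 0.52 (control XX over control XY, 0.12) and 0.32 (dKO XY over control XX, 0.16), or 0.48, 0.52 and 0.48 after adjustment over the 3 tests. The markers did not move as 1 group: *Ddx4*, a helicase gene of all germ cells, differed by 0.22 ± 0.19 between dKO XY and control XY, whereas *Taf7l* rose by 2.44, *Dazl* by 1.56 and *Tex101* by 1.44, and *Gtsf1* fell by 1.14. In control XX over control XY, 5 of the 12 markers were called higher and 4 lower, so a flat mean cannot show equal germ cell content. With this mean subtracted from every array, 8 of the 10 genes were again called as higher in dKO XY over control XY. Their differences ran from 1.21 units for *Rec8* to 4.70 for *M1ap*, and the subtraction carries the same limit. Of 8 markers of male fetal germ cells, 4 fell in dKO XY and 0 rose: *Piwil4* (-2.95), *Tdrd9* (-2.27), *Morc1* (-2.22) and *Dnmt3l* (-1.76). The rest, *Mov10l1* (0.27), *Nodal* (0.16), *Tdgf1* (-0.16) and *Lefty2* (-0.08), were not called. *Mov10l1* had a higher mean in the control ovaries (12.76) than in the control testes (11.88). *Nodal* (5.16) and *Tdgf1* (4.64) were below the negative control median of 6.24 in the control testes. The mean of these 8 was 6.55 to 7.67 in dKO XY, 7.53 to 8.89 in the control testes and 6.15 to 6.34 in the control ovaries. The means of 5 mesonephros markers were 5.70 to 5.97, 5.36 to 5.75 and 5.95 to 6.17 in the same order, and those of 3 erythroid markers were 7.30 to 8.65, 7.36 to 8.44 and 7.98 to 10.68. Of the 5 mesonephros markers, only *Emx2* was called against control XY, at 1.12 in dKO XY and 2.54 in control XX. In dKO XY, *Pax2*, *Pax8* and *Cdh16* differed from control XY by -0.03, 0.02 and 0.03, and *Lhx1* by 0.54. The part of these markers in the differences was not tested.

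Across the 15 arrays, 9 of the 10 genes followed the mean of the 10 closely (Pearson r = 0.961 for *Rad21l* to 0.991 for *Meioc*), and *Sgo2a* ran against it (r = -0.572). Among the other genes with 1 symbol, the 8 most like that mean were *Uba6* (r = 0.995), *Syce1* (0.994), *Cab39l* (0.993), *Gm7972* (0.992), *Xlr4a*, *Hormad1*, *Srbd1* and *Mre11a* (0.990 each). *Syce1* and *Hormad1* are synaptonemal complex and axis genes, *Mre11a* acts in DNA break repair, and *Uba6* encodes a ubiquitin-activating enzyme. Their differences between dKO XY and control XY ran from 0.88 for *Mre11a* to 2.80 for *Xlr4a*. The arrays share the 3 group means, and these correlations are given as a description.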

How the data were processed

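RNA of 15 gonads was measured on 1-color Affymetrix arrays. The authors derived the deposited log2 values with the array maker's software and an RMA-type normalization, and the genome build of the array annotation is not given in the sources used here. Of 72688 entries, 6732 controls were left out and 65956 clusters were tested, of which 30638 carried 1 symbol, 2176 several and 33142 none. Arrays count no molecules, and their number limits the precision. Samples were grouped from their labels. Group means were estimated from all 15 arrays together in limma 3.58.1 (R 4.3.3, eBayes, two-sided) and tested on simulated data. Intervals are moderated 95% intervals of the difference. The mean of the germ cell markers was compared with an exact permutation test (scipy 1.17.1).

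The 10 genes, the lists and the tests were chosen with earlier results of these data known. The text names the 10 genes, up to 4 called genes of each list by statistic, 5 general cohesin subunits and the 8 genes most like the mean. Other genes were named after their values were seen. Alternatives were another normalization, moderation, array weights, a replicate block, fewer samples or clusters, other thresholds and subtraction of the germ cell marker mean.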

Additional observations from a re-analysis of the deposited data

Results flagged for a closer look

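In each group of 5 arrays, the gap between the outermost array and its nearest neighbor was compared with the range of the group. Of 30 groups (10 genes in 3 groups), 4 held an array that stood apart (gap over range above 0.71), and chance gives about 1 in 20 groups. *M1ap* had 13.37 in control XX replicate 1, against 14.40 to 14.69 in the other 4 arrays. *Rad21l* had 11.70 in the same array, against 12.51 to 12.78. *Sgo2a* had 9.24 in control XY replicate 2, against 8.80 to 8.89, and 8.45 in dKO XY replicate 2, against 8.88 to 9.02.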

How the results depend on the processing

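The results were recomputed under 13 alternatives and with each of the 15 arrays left out. Of the 13, the mean over all clusters of a gene repeats the main fit, since each of the 10 genes has 1 cluster. That alternative and the subtractions of the germ cell marker mean covered the 10 genes only. The counts of the 10 genes remained 8 higher in dKO XY over control XY, 9 higher in control XX over control XY and 9 lower in dKO XY over control XX, except when the minimum difference was changed. With none, *Ythdc2* made 9 genes higher in dKO XY over control XY, *Sgo2a* was added as 1 gene lower in control XX over control XY and 1 higher in dKO XY over control XX, and the clusters called higher and lower became 2911 and 3972 (dKO XY over control XY), 7094 and 8855 (control XX over control XY) and 4977 and 4956 (dKO XY over control XX). With a minimum of 2 units, 6 genes were higher in dKO XY over control XY (without *Rec8* and *Stag3*) and 4 lower in dKO XY than in control XX (without *Stra8*, *Ythdc2*, *Rec8*, *Smc1b* and *Stag3*), and the cluster counts were 65 and 46, 387 and 429, and 192 and 88. No difference of the 10 genes that was called changed direction. Of the recomputed differences of the 10 genes, 830 kept their side of the threshold, 7 lost their call (all at 2 units) and 3 gained one (all with no minimum). The 1070 clusters lower in dKO XY than in control XY became 674 without control XY replicate 5 and at most 1392 without control XY replicate 2. Calls near 1 unit depended on single arrays: *Msh4* in dKO XY over control XY fell to 0.83 and *Mei1* to 0.97 without dKO XY replicate 1, and *Syce3* in dKO XY over control XX reached -0.86 without control XX replicate 3. *Msx2* in dKO XY over control XX behaved likewise (-0.88 without control XX replicate 1). The call of *Rad21* in dKO XY over control XX depended on the normalization, at 0.98 after a second quantile normalization. The germ cell marker mean was subtracted in a moderated fit and, because that fit gave implausibly small p-values, also without moderation, a setting added after seeing the data. Both called the same numbers of genes, and without moderation *Rec8* had an adjusted p of 0.011 and *Ythdc2* 0.18 in dKO XY over control XY. The groups share replicate numbers, but same-numbered arrays correlated at -0.191 to -0.041 (dKO XY and control XY), -0.175 to 0.159 (dKO XY and control XX) and -0.113 to 0.189 (control XY and control XX) after group means were removed, so the number was not taken as a pairing. With the replicate block, 369 clusters were higher and 1052 lower in dKO XY than in control XY, against 374 and 1070 without it, and the 10 genes kept their counts of 8, 9 and 9. Signals near the background, as for *Rec8*, *Stra8*, *Meioc*, *M1ap*, *Bhmg1* and *Rad21l* in control XY, limit how large a difference can be measured.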
